A study of Macaca fascicularis with 16 samples.

Results

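Collagen chain genes were followed in the endometrium of 16 postmenopausal female cynomolgus macaques. The genes are those whose single symbol in the array platform's annotation is COL, a type number, A and a chain number, each read by whichever of its probe sets was brightest on average over the 16 arrays. The rule found 35 genes among 14132 annotated ones: 10 fibrillar chains, 4 basement membrane chains of type IV and 21 chains of other types. Of these, 28 passed a filter on dim probe sets made without regard to arm: 8 fibrillar, 4 basement membrane and 16 other chains.

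The animals took a diet for 4 months with micronized estradiol at 0.25 mg per 1800 kcal, with tamoxifen at 20 mg per 1800 kcal, with both drugs at these doses (the combination), or with placebo (the controls). Each arm held 4 animals, assigned by randomization, and each animal gave 1 array made for the rhesus macaque, a close relative. Estradiol is the main ovarian estrogen, and tamoxifen is an estrogen receptor ligand that opposes estrogen in breast and acts partly as an estrogen in the uterus. All animals, controls included, were past menopause, so the controls stand for an endometrium with low estrogen.

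Collagens are extracellular proteins of which chains wind around each other into a rope-like helix. Fibrillar collagens form the load-bearing fibres of connective tissue, type IV forms the sheet of basement membranes, and the other types decorate fibrils, anchor membranes to the stroma or build finer filaments. In endometrium and the muscle beneath it, fibrillar collagen is made mainly by stromal fibroblasts and smooth muscle cells, and estrogen is known to drive growth of both layers.

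Signals are MAS5 values scaled by the authors, in arbitrary units, and signals of different genes cannot be ranked against each other. A change is the difference of arm means of log2(signal + 4.80), given with its standard error, which understates the change of dim genes. A gene is called higher or lower where limma's adjusted p, taken over all 31659 probe sets tested, is under 0.05. The 3 comparisons with placebo share the same 4 control arrays.

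Genes listed as markers of endometrium were present, though whether they tell it from the muscle beneath was not tested. HOXA10 (1946 to 4104), HOXA11 (1646 to 3605), PGR, the progesterone receptor (373 to 1796), and ESR1, an estrogen receptor (242 to 642), had signal on all 16 arrays. Smooth muscle genes were present too, with median signals over all arrays from 897 (SYNM) to 10977 (TAGLN). In these genes 2 arrays stood apart. The mean deviation of 8 smooth muscle genes was -4.02 for estradiol animal 4 and -0.91 for tamoxifen animal 1, against 0.11 to 0.70 for the other 14 arrays. Their summed signal ran from 2109 to 40356 in the estradiol arm, from 19195 to 48341 in the tamoxifen arm, from 39657 to 43743 in the combination arm and from 32399 to 39372 in the controls. The log2 ratio of the 3′ to the 5′ actin control signal, a measure of RNA and labelling quality, was 0.57 ± 0.18 in the estradiol arm, 0.52 ± 0.043 in the tamoxifen arm, 0.55 ± 0.075 in the combination arm and 0.92 ± 0.11 in the controls (SD, n = 4 each). Since this ratio moved with treatment, the counts of collagen chains and of collagen-handling genes against control are also given with it as a covariate. In bulk tissue, fewer cells of a type and less RNA per cell cannot be told apart.

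Over all 28 tested chains, 7 were called higher and 0 lower for estradiol, where 16.5% of all tested genes were called higher and 13.2% lower. The counts were 5 higher and 2 lower for tamoxifen (8.65% and 7.63% of all tested genes) and 8 higher and 1 lower for the combination (10.7% and 9.11%). In either direction, 25%, 25% and 32.1% of the chains were called, beside 29.7%, 16.3% and 19.8% of all genes, so for estradiol the share was no higher than that of genes at large. At an unadjusted p under 0.05, limma gave 9, 10 and 12 chains higher and 1, 3 and 2 lower. For this and all later counts at an unadjusted p, the share of all tested genes was not computed. Such counts therefore do not tell the chains from genes at large. All 4 treated animals lay above all 4 controls in 8 chains for estradiol, 8 for tamoxifen and 10 for the combination, and below them in 0 chains. Over all tested genes, the shares above were 15.5%, 11.2% and 15.3%, and the shares below 13%, 11.6% and 13.8%. The median change of the tested chains was 0.07, 0.12 and 0.35. The chains of other types made up 4, 3 and 5 of the higher calls, and 0 of these were called lower.

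**Figure D1:**
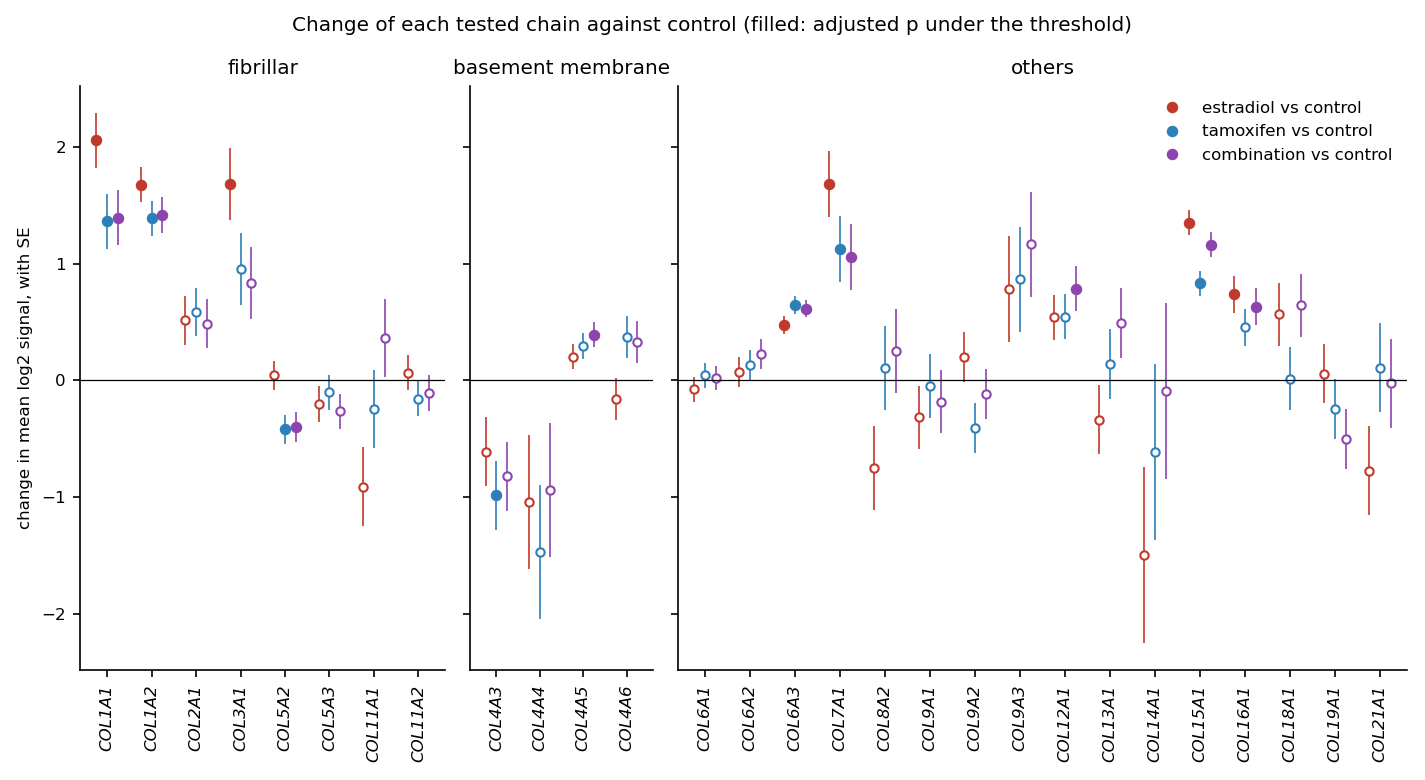
Log2 change against control with its standard error (vertical axis) for the 28 tested collagen chains, grouped as fibrillar, basement membrane and others, in the estradiol, tamoxifen and combination arms; filled points passed the threshold. The largest estradiol increases are those of COL1A1 (2.06), COL1A2, COL3A1 and COL7A1 (1.68 each) and COL15A1 (1.35), and the largest decreases, both open, are those of COL14A1 (-1.50) and COL4A4 (-1.05).

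The chains of type I collagen, the main fibre protein of connective tissue, were among the collagens with the largest changes against control. COL1A1, the first chain of type I, had signals of 6751, 7613, 4209 and 6357 in the estradiol arm, 3630, 4109, 3018 and 4417 in the tamoxifen arm, 6059, 3804, 2723 and 3448 in the combination arm and 1724, 1746, 1036 and 1451 in the controls. Every treated animal lay above every control, and the estradiol arm was mostly the highest. The change against control was 2.06 ± 0.24 (SE) for estradiol (adjusted p = 6.26e-05 by limma), 1.36 ± 0.24 for tamoxifen (adjusted p = 0.00242) and 1.39 ± 0.24 for the combination (adjusted p = 0.00164), or 4.16-fold, 2.57-fold and 2.62-fold. The estradiol change stood at the percentile 99.2 of the changes of the 10703 genes tested.

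COL1A2, the partner chain that pairs with COL1A1 in type I collagen, followed the same order. Its signals were 13397, 12891, 9709 and 13105 in the estradiol arm, 9445, 11196, 7874 and 11850 in the tamoxifen arm, 12052, 10394, 9654 and 8828 in the combination arm and 4095, 3248, 3360 and 4690 in the controls. No treated array overlapped the controls, while the treated arms overlapped each other. The changes were 1.68 ± 0.15 for estradiol (adjusted p = 1.56e-05 by limma), 1.39 ± 0.15 for tamoxifen (adjusted p = 0.000252) and 1.42 ± 0.15 for the combination (adjusted p = 0.000114). A dimmer probe set of the gene was called in the same direction in each arm, at 1.85, 1.24 and 1.29.

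COL3A1, the chain of type III collagen, which forms fine fibres beside type I in distensible tissue, was called for estradiol only. It had signals of 727, 798, 536 and 483 in the estradiol arm, 395, 274, 430 and 418 in the tamoxifen arm, 544, 209, 503 and 242 in the combination arm and 222, 114, 215 and 243 in the controls. The estradiol and tamoxifen arrays all lay above the controls, but in the combination arm animals 2 and 4 lay within the control range. The estradiol change was 1.68 ± 0.31 (adjusted p = 0.00137 by limma). Tamoxifen (0.95, adjusted p = 0.0538) and the combination (0.83, adjusted p = 0.0807) missed the threshold by limma, and the platform gives the gene a single probe set. Both passed it once a low animal was left out: without tamoxifen animal 2 the tamoxifen change was 1.10 (adjusted p = 0.0419), and without combination animal 2 the combination change was 1.07 (adjusted p = 0.0387).

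**Figure D2:**
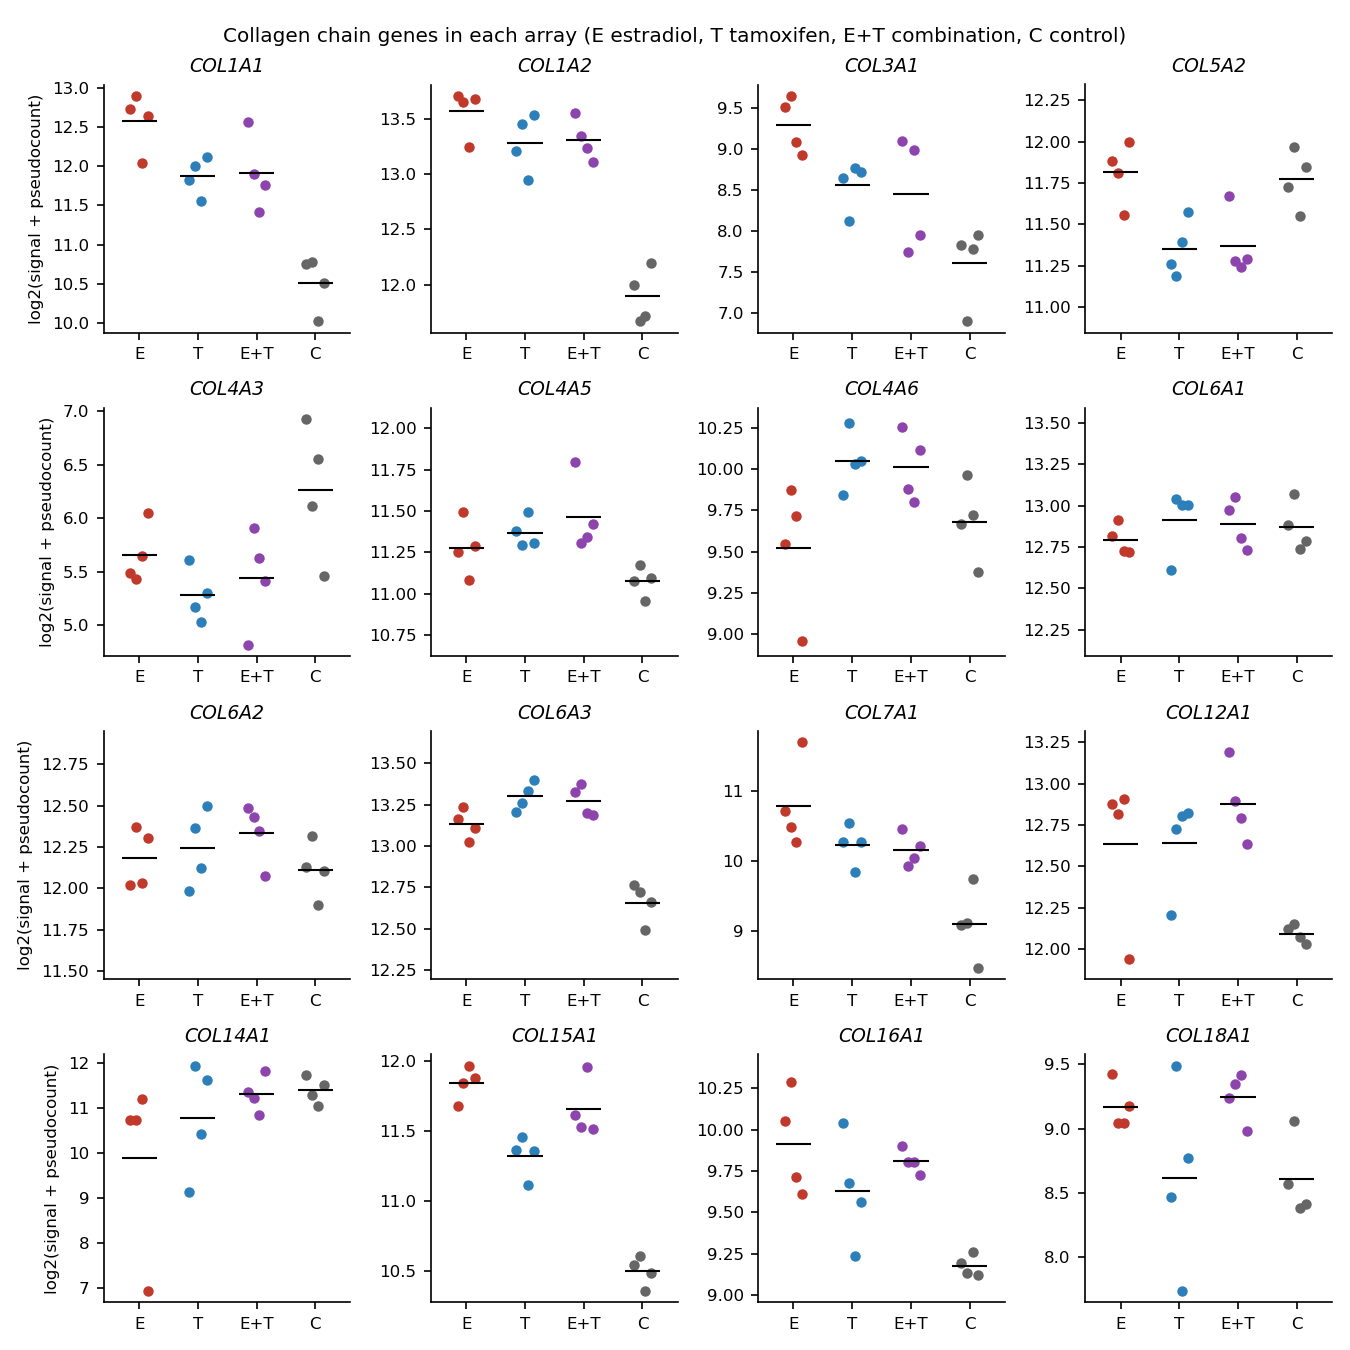
Signal of collagen chains on each array on the log2(signal + 4.80) scale (vertical axis, 1 panel per gene, each with its own range) in the estradiol, tamoxifen, combination and control arms; points are animals and bars are arm means. For COL1A1, COL1A2, COL6A3, COL7A1 and COL15A1 all points of the treated arms lie above all 4 controls, while COL6A1 and COL6A2 overlap in all arms.

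COL5A2, a chain of type V collagen, which sits inside type I fibrils and limits their width, gave opposite answers from different probe sets. By the brightest probe set its signals were 3776, 3589, 3013 and 4091 in the estradiol arm, 2447, 2332, 2678 and 3039 in the tamoxifen arm, 3255, 2476, 2420 and 2504 in the combination arm and 3383, 3997, 2995 and 3679 in the controls. Most tamoxifen and combination animals lay below the controls by this measure, with 1 of each arm inside the control range. It was called lower for tamoxifen (-0.42, adjusted p = 0.0384 by limma) and for the combination (-0.40, adjusted p = 0.0411), but not for estradiol (0.04, adjusted p = 0.847). The call was lost without control animal 1, 2 or 4 or tamoxifen animal 1, 2 or 3 for tamoxifen (adjusted p of 0.0646 to 0.0969), and without control animal 1, 2 or 4 or combination animal 2, 3 or 4 for the combination (adjusted p of 0.0682 to 0.105).

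The probe set of COL5A2 second in brightness gave 3252, 2928, 1989 and 2628 in the estradiol arm, 1998, 1998, 2215 and 2010 in the tamoxifen arm, 2221, 2185, 1878 and 1965 in the combination arm and 1321, 1426, 1210 and 1258 in the controls. Here all treated animals lay above all controls, and the changes of 1.03, 0.66 and 0.66 were each called higher by limma (adjusted p = 7.72e-05, 0.00358 and 0.00276). The dimmest of its 4 probe sets was also called higher, at 1.29, 0.81 and 0.71, and the remaining one was not called, at 0.38, -0.19 and -0.13. The direction of COL5A2 therefore depends on the probe set, and the probes' places on the transcript were not examined. The neighbour of COL5A2 in the RefSeq gene table of the cynomolgus macaque is COL3A1, which was called higher for estradiol.

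The other tested fibrillar chains were dim. COL11A1, a chain of the cartilage fibril type XI, had signals of 36.8, 94.8, 54.0 and 22.6 in the estradiol arm, 52.6, 63.0, 91.5 and 107 in the tamoxifen arm, 95.9, 115, 147 and 122 in the combination arm and 58.0, 107, 100 and 109 in the controls. The estradiol arm held the lowest values, and all combination animals lay above all estradiol animals. Its estradiol change of -0.91 ± 0.34 missed the threshold (adjusted p = 0.0581 by limma), and was called without estradiol animal 2 (-1.24, adjusted p = 0.0119) or control animal 1 (-1.11, adjusted p = 0.0354). COL2A1, the fibrillar chain of cartilage, changed by 0.51, 0.58 and 0.49 in the estradiol, tamoxifen and combination arms without a call, and by 0.73 for tamoxifen without tamoxifen animal 1 (adjusted p = 0.0451 by limma). COL5A3 (-0.20, -0.10 and -0.27) and COL11A2 (0.06, -0.16 and -0.11) were not called either, and the cartilage genes ACAN and MATN1 were below the filter.

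Over the fibrillar class, 3 of 8 tested chains were called higher and 0 lower for estradiol, 2 higher and 1 lower for tamoxifen, and 2 higher and 1 lower for the combination. The shares of all tested genes were 16.5%, 8.65% and 10.7% higher and 13.2%, 7.63% and 9.11% lower. At an unadjusted p under 0.05, limma gave 4 of the 8 chains higher and 1 lower in each of the 3 comparisons. The median change of the 8 was 0.29, 0.24 and 0.43, beside 0.01, -0.02 and -0.01 over all genes tested. The mean deviation of the 8 chains from their own averages was 0.06 to 0.49 in the estradiol arm, -0.08 to 0.30 in the tamoxifen arm, -0.04 to 0.24 in the combination arm and -0.45 to -0.30 in the controls. COL24A1 and COL27A1, the remaining fibrillar chains, were under the filter.

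The basement membrane chains gave few calls, in both directions. COL4A5, a chain of the type IV network found in smooth muscle and epithelial basement membranes, had signals of 2433, 2878, 2161 and 2497 in the estradiol arm, 2656, 2508, 2882 and 2527 in the tamoxifen arm, 3548, 2524, 2597 and 2736 in the combination arm and 2159, 2302, 1977 and 2186 in the controls. All tamoxifen and combination animals lay above the controls by a small margin. It was called higher for the combination (0.39 ± 0.11, 1.31-fold, adjusted p = 0.026 by limma), and not for tamoxifen (0.29, adjusted p = 0.0892) or estradiol (0.20, adjusted p = 0.193). Without combination animal 1, the combination change was 0.28 and its call was lost (adjusted p = 0.0803), as it was without control animal 1 (adjusted p = 0.0531) or 3 (adjusted p = 0.0681). By the gene's other tested probe set, or with the actin ratio as a covariate, the combination change was not called.

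COL4A6, which pairs with COL4A5 in the same network, had signals of 744, 932, 834 and 493 in the estradiol arm, 914, 1238, 1041 and 1053 in the tamoxifen arm, 1216, 937, 886 and 1104 in the combination arm and 808, 992, 841 and 659 in the controls. The arms overlapped, and no change was called (-0.16, 0.37 and 0.33). COL4A3 and COL4A4, which are neighbours in the genome and chains of the specialised network of kidney and lung, were dim. COL4A3 had signals of 40.2, 38.4, 45.3 and 61.3 in the estradiol arm, 44.2, 31.3, 27.9 and 34.6 in the tamoxifen arm, 23.4, 55.4, 44.7 and 37.9 in the combination arm and 117, 64.7, 89.4 and 39.2 in the controls. Control animals 1 to 3 were above all treated animals, and control animal 4 was not.

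COL4A3 was called lower for tamoxifen (-0.99, adjusted p = 0.0384 by limma) and not for estradiol (-0.61, adjusted p = 0.142) or the combination (-0.82, adjusted p = 0.0706). The tamoxifen call was lost without control animal 1, 2 or 3 or tamoxifen animal 2, 3 or 4 (adjusted p of 0.0548 to 0.112), while without control animal 4 the estradiol and combination changes were -0.88 and -1.09 and were called (adjusted p = 0.032 and 0.0188). Its other probe set was called lower for estradiol (-0.96, adjusted p = 0.0416) and the combination (-1.08, adjusted p = 0.0369), and not for tamoxifen (-0.78, adjusted p = 0.125), by limma. COL4A4 had signals of 53.0, 79.4, 105 and 263 in the estradiol arm, 91.2, 60.1, 113 and 54.9 in the tamoxifen arm, 48.0, 172, 140 and 138 in the combination arm and 351, 194, 518 and 65.6 in the controls. The same control animal 4 was the lowest of its arm for both genes. COL4A4 changed by -1.05, -1.47 and -0.94 without a call, and without control animal 4 the estradiol and tamoxifen changes were -1.61 and -2.03, called lower by limma (adjusted p = 0.0367 and 0.0224).

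Of the 4 type IV chains, 0 were called in either direction for estradiol, 1 was lower for tamoxifen and 1 higher for the combination. At an unadjusted p under 0.05, limma gave 0 for estradiol. For tamoxifen it gave 1 higher and 2 lower, and for the combination 1 higher and 1 lower. In either direction, 29.7%, 16.3% and 19.8% of all tested genes were called. The median changes of the 4 chains were -0.39, -0.35 and -0.25. COL4A1 and COL4A2, the chains of the common type IV network, were not analysed here, so the class covers only the less widespread chains. Endothelium, another maker of type IV collagen, had 5 of 9 markers called lower for estradiol and 1 of 9 for tamoxifen and for the combination. Of all tested genes, 13.2%, 7.63% and 9.11% were called lower. Whether the endothelial markers bear on the type IV chains was not tested.

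Type VI collagen, a beaded filament around cells, is built from different chains, and these differed in their calls. COL6A1 had signals of 7216, 7712, 6771 and 6741 in the estradiol arm, 6255, 8420, 8222 and 8200 in the tamoxifen arm, 8040, 8501, 7158 and 6790 in the combination arm and 7566, 8611, 6841 and 7072 in the controls. Its neighbour COL6A2 had 4150, 5288, 4178 and 5041 in the estradiol arm, 4040, 5271, 4447 and 5790 in the tamoxifen arm, 5735, 5527, 5214 and 4309 in the combination arm and 4473, 5095, 3820 and 4390 in the controls. Both overlapped in all arms, with changes of -0.08, 0.04 and 0.02 for COL6A1 and 0.07, 0.13 and 0.22 for COL6A2.

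COL6A3, the largest type VI chain, was higher in all treated animals. It had signals of 9159, 9646, 8342 and 8820 in the estradiol arm, 9441, 9823, 10327 and 10795 in the tamoxifen arm, 10266, 10644, 9400 and 9317 in the combination arm and 6941, 6743, 5757 and 6461 in the controls. The arms were tight and did not overlap the controls. The changes were 0.47 ± 0.08 for estradiol (1.39-fold, adjusted p = 0.000571 by limma), 0.64 ± 0.08 for tamoxifen (1.56-fold, adjusted p = 0.000301) and 0.61 ± 0.08 for the combination (1.53-fold, adjusted p = 0.000263). The platform gives COL6A3 a single probe set.

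COL7A1, the chain of the anchoring fibrils that tie an epithelial basement membrane to the stroma, had signals of 1665, 1429, 1224 and 3290 in the estradiol arm, 1230, 1485, 912 and 1231 in the tamoxifen arm, 1400, 972, 1048 and 1185 in the combination arm and 540, 548, 850 and 352 in the controls. All treated animals lay above all controls, with estradiol animal 4 far above the rest. The changes were 1.68 ± 0.28 for estradiol (adjusted p = 0.000792 by limma), 1.13 ± 0.28 for tamoxifen (adjusted p = 0.0177) and 1.06 ± 0.28 for the combination (adjusted p = 0.0209). A dimmer probe set was called higher in each arm too, at 2.07, 1.20 and 1.27. Without control animal 4, the tamoxifen and combination changes of 0.92 and 0.85 lost their calls (adjusted p = 0.0504 and 0.062), and so did the combination change without combination animal 1 (0.96, adjusted p = 0.0652).

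COL15A1, the chain of type XV collagen, which bridges fibrils to basement membranes, was higher in every treated animal. Its signals were 3280, 3678, 4011 and 3779 in the estradiol arm, 2634, 2813, 2216 and 2618 in the tamoxifen arm, 3137, 2959, 3991 and 2918 in the combination arm and 1487, 1548, 1302 and 1424 in the controls. The controls were lowest, the tamoxifen arm was next, and the combination and estradiol arms overlapped above it. The changes were 1.35 ± 0.11 for estradiol (2.55-fold, adjusted p = 9.36e-06 by limma), 0.83 ± 0.11 for tamoxifen (1.78-fold, adjusted p = 0.00048) and 1.16 ± 0.11 for the combination (2.24-fold, adjusted p = 6.27e-05).

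A dimmer COL15A1 probe set, with a mean signal of 191 over all arrays against 2737 for the brighter one, showed no such pattern. It read 151 to 243 in the treated animals and 185 to 218 in the controls, with changes of -0.09, -0.12 and -0.18 and no call. COL18A1, the related chain from which the fragment endostatin is cut, had signals of 682, 521, 523 and 574 in the estradiol arm, 349, 715, 208 and 432 in the tamoxifen arm, 601, 645, 681 and 501 in the combination arm and 375, 528, 328 and 335 in the controls. It was not called (0.57, 0.01 and 0.64), and tamoxifen animal 3 was the lowest of all.

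**Figure D3:**
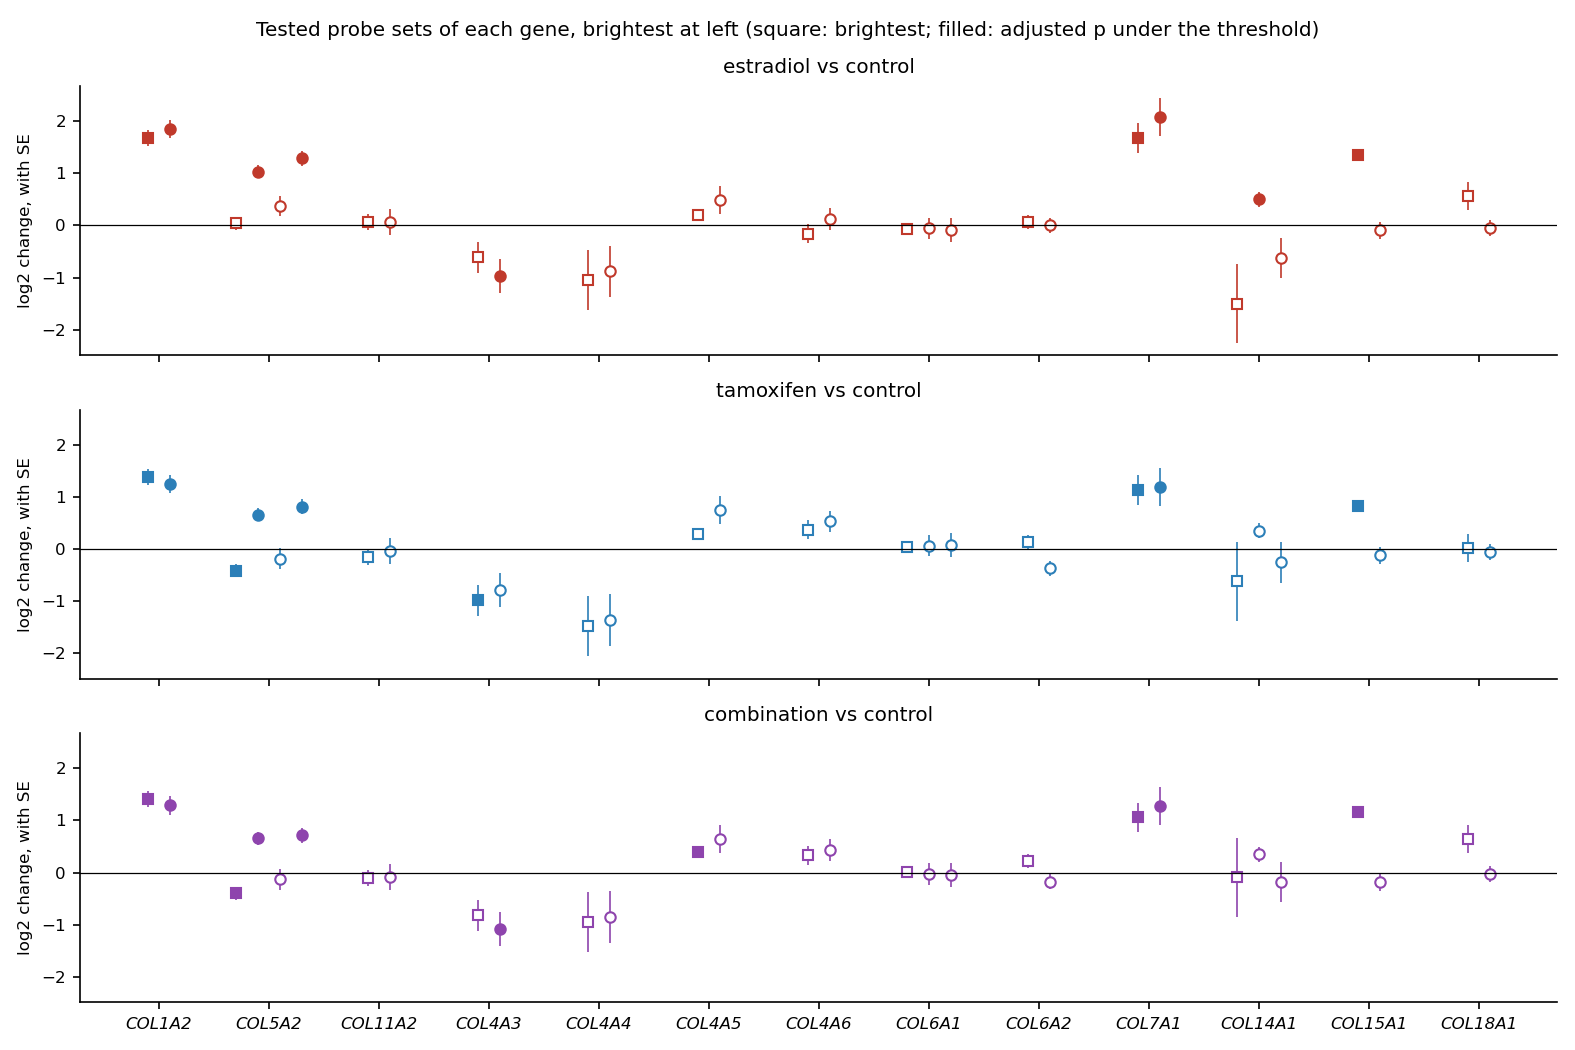
Log2 change against control with its standard error (vertical axis) of every tested probe set of the 13 collagen genes with several, from top to bottom for the estradiol, tamoxifen and combination arms; squares are the brightest probe sets and filled points passed the threshold. The probe sets of COL1A2 and COL7A1 lie on the same side of 0, while those of COL5A2 under tamoxifen and the combination, and those of COL15A1, spread to both sides.

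The fibril-associated types sit on the surface of collagen fibres and include COL12A1, COL14A1 and COL16A1. COL12A1 had signals of 7500, 7202, 7659 and 3929 in the estradiol arm, 4721, 6781, 7144 and 7233 in the tamoxifen arm, 9363, 7604, 7082 and 6371 in the combination arm and 4451, 4550, 4306 and 4171 in the controls. All treated animals but estradiol animal 4 lay above the controls. It was called higher for the combination (0.78, adjusted p = 0.0132 by limma) and fell just short for estradiol (0.54, adjusted p = 0.0507) and tamoxifen (0.55, adjusted p = 0.0722). Without estradiol animal 4 and tamoxifen animal 1, both arrays low in muscle genes, the estradiol and tamoxifen changes were 0.77 and 0.69 and were called (adjusted p = 0.000251 and 0.00164 by limma).

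COL14A1, which binds fibrils and the proteoglycans on them, varied widely within arms. It had signals of 1704, 1710, 2339 and 118 in the estradiol arm, 558, 3951, 1365 and 3180 in the tamoxifen arm, 2615, 2376, 1836 and 3633 in the combination arm and 3413, 2528, 2117 and 2919 in the controls. The lowest animal of the estradiol arm and of the tamoxifen arm were those low in muscle genes. The changes of -1.50, -0.62 and -0.09 were not called, and without these 2 arrays they were -0.51, -0.07 and -0.09. A dimmer COL14A1 probe set was called higher for estradiol (0.50, adjusted p = 0.019 by limma). COL21A1, another fibril-associated chain, had its lowest value, 27, in estradiol animal 4 as well. The part of tissue makeup in these values was not tested.

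COL16A1, a chain found with fibrils and near basement membranes, had signals of 1054, 1244, 835 and 779 in the estradiol arm, 1050, 814, 599 and 752 in the tamoxifen arm, 950, 890, 888 and 840 in the combination arm and 581, 556, 608 and 553 in the controls. The estradiol and combination animals all lay above the controls, and tamoxifen animal 3 lay among them. It was called higher for estradiol (0.74, 1.67-fold, adjusted p = 0.00355 by limma) and the combination (0.63, 1.55-fold, adjusted p = 0.0148), and not for tamoxifen (0.45, adjusted p = 0.0694, or 0.58 and 0.0274 without tamoxifen animal 3). COL9A3, a chain of the cartilage type IX, changed by 0.78, 0.86 and 1.16 with wide spread and no call, and by 1.43 for tamoxifen without tamoxifen animal 2 (adjusted p = 0.0105 by limma).

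**Figure D4:**
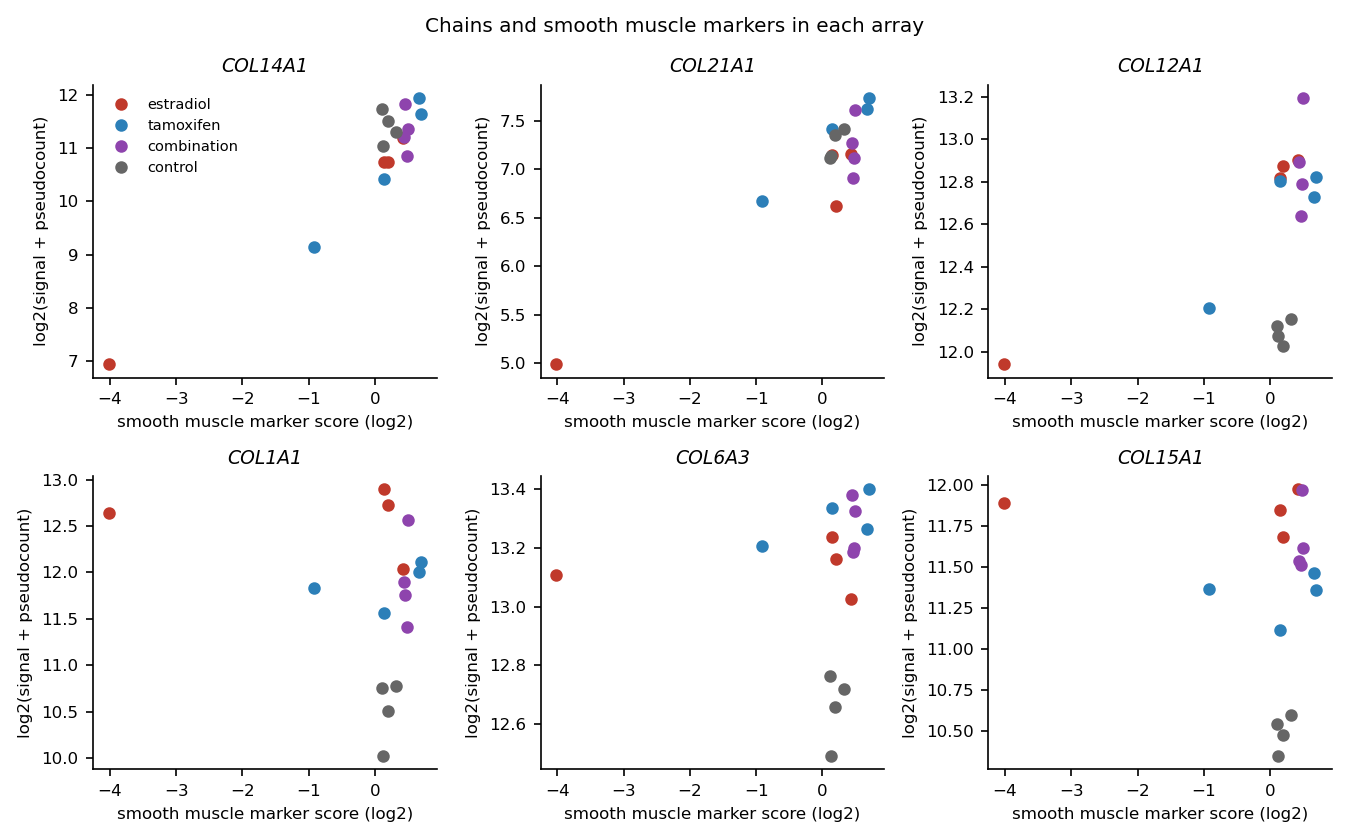
Collagen signal on the log2(signal + 4.80) scale (vertical axis) against the mean deviation of 8 smooth muscle genes (horizontal axis) on each array, for 6 chains, coloured by arm. Estradiol animal 4, at -4.02, and tamoxifen animal 1, at -0.91, lie to the left and hold the lowest COL14A1 and COL12A1 values of their arms, while their COL1A1 and COL15A1 values lie among those of their arms; for COL6A3, tamoxifen animal 1 is the lowest of its arm and still above the controls.

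Among the remaining chains of other types, COL8A2 (-0.75, 0.11 and 0.25), COL9A1 (-0.32, -0.05 and -0.18), COL9A2 (0.20, -0.41 and -0.12), COL13A1 (-0.34, 0.14 and 0.49), COL19A1 (0.06, -0.25 and -0.51) and COL21A1 (-0.78, 0.11 and -0.03) were not called for estradiol, tamoxifen or the combination. COL10A1, COL20A1, COL25A1, COL26A1 and COL28A1 were under the filter. The 7 untested chains, fibrillar ones included, had mean signals of 2.74 to 39.8, a range in which no statement on change was made. The 13 tested chains with a mean signal under 200 gave 1 call between them, that of COL4A3, so calls came almost wholly from the brighter chains.

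With the actin ratio as a covariate, 5 chains were higher and 3 lower for estradiol, 3 higher for tamoxifen and 4 higher for the combination. The higher ones were COL1A1, COL1A2, COL6A3, COL7A1 and COL15A1 for estradiol, COL1A2, COL7A1 and COL15A1 for tamoxifen, and COL1A2, COL6A3, COL7A1 and COL15A1 for the combination. The chains lower for estradiol in that fit were COL11A1 (-2.04), COL14A1 (-3.81) and COL21A1 (-2.07). In each of them estradiol animal 4 had the lowest signal of its arm. Its actin ratio was 0.83, against 0.41 to 0.54 for the rest of the estradiol arm. How far these lower calls rest on that animal was not tested. Calls over all probe sets also fell in this fit, to 3133 against 8062 without the covariate for estradiol, 224 against 4214 for tamoxifen and 637 against 5015 for the combination. With the covariate, 9.9%, 0.708% and 2.01% of all tested probe sets were called. Because the ratio differed between treated and control arrays, its part and that of treatment cannot be told apart.

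Markers of other cell types moved with treatment too. The mean deviation of 7 epithelial markers was 0.28 in the estradiol arm, 0.20 in the tamoxifen arm, 0.29 in the combination arm and -0.77 in the controls, where it ran from -0.81 to -0.71. The summed signal of all 9 annotated epithelial markers was 4686 to 8543 in the estradiol arm, 4720 to 8880 in the tamoxifen arm, 5106 to 6694 in the combination arm and 3343 to 3645 in the controls. These 9 include KRT7 (2.44 to 56.6) and CDH1 (1.75 to 134), which were under the filter, and no marker was at 0. Markers of stromal fibroblasts did not part the arms: their mean deviation was -0.37 to 0.41 in the estradiol arm, -0.56 to 0.30 in the tamoxifen arm, -0.42 to 0.14 in the combination arm and -0.17 to 0.12 in the controls. Of 8 such markers, 2 were called higher for estradiol, 1 for tamoxifen and 1 for the combination. Markers of dividing cells had 4 of 5 called higher for estradiol and 0 for tamoxifen and the combination, with a mean deviation of 0.35 to 1.68 in the estradiol arm, -1.03 to 0.37 in the tamoxifen arm, -0.37 to 0.16 in the combination arm and -1.04 to -0.60 in the controls. Of these, 2 of 5 were lower for the combination than for estradiol, and 2 of 5 lower for tamoxifen than for estradiol. Leukocyte markers had 0, 2 and 3 of 6 called lower for estradiol, tamoxifen and the combination, with a mean deviation of -0.38 to 0.37 in the estradiol arm, -0.68 to 0.05 in the tamoxifen arm, -0.89 to 0.03 in the combination arm and 0.24 to 0.96 in the controls. Over all tested genes, 16.5%, 8.65% and 10.7% were called higher and 13.2%, 7.63% and 9.11% lower for estradiol, tamoxifen and the combination. Against estradiol, 0.878% were called lower for the combination and 0.57% for tamoxifen. The part of the marker shifts in the collagen changes was not tested.

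Adding tamoxifen to estradiol moved no chain past the threshold. For the combination against estradiol, 0 of 28 chains were called by limma, where 1.33% of all tested genes were called (0.448% higher and 0.878% lower). At an unadjusted p under 0.05, 4 chains were higher and 5 lower. All combination animals lay above all estradiol animals in 2 chains and below them in 0, beside 4.06% and 6.4% of all tested genes. COL1A1 averaged 4009 ± 1439 in the combination arm and 6232 ± 1447 in the estradiol arm (SD, n = 4 each), a change of -0.67 (adjusted p = 0.174). COL3A1 averaged 375 ± 174 in the combination arm and 636 ± 150 in the estradiol arm, a change of -0.85 (adjusted p = 0.187). In both genes the arms overlapped. COL11A1 ran the other way, at 120 ± 21.1 in the combination arm and 52.1 ± 31.3 in the estradiol arm (1.28, adjusted p = 0.0728 by limma, or 1.60 and 0.0308 without estradiol animal 2).

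Tamoxifen alone against estradiol alone gave 1 call, where 0.719% of all tested genes were called (0.149% higher and 0.57% lower). COL15A1 was lower, at 2570 ± 252 in the tamoxifen arm and 3687 ± 305 in the estradiol arm (SD, n = 4 each; -0.52 ± 0.11, adjusted p = 0.0422 by limma), and no animal overlapped. The call held without tamoxifen animal 1 and was lost without any other of these 8 arrays, with changes of -0.58 to -0.45 and adjusted p of 0.0507 to 0.144. By its brightest probe set, COL5A2 was called lower without estradiol animal 3, in tamoxifen (-0.55, adjusted p = 0.0409) and in the combination (-0.53, adjusted p = 0.0344), each against estradiol. COL1A1 (-0.70, adjusted p = 0.213) and COL3A1 (-0.73, adjusted p = 0.327) were not called, although all tamoxifen animals lay below all estradiol animals for COL3A1. At an unadjusted p under 0.05 the same comparison had 4 chains higher and 5 lower. All tamoxifen animals lay above all estradiol animals in 0 chains and below them in 3, beside 2.56% and 4.56% of all tested genes.

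The combination against tamoxifen gave 0 calls among the chains by limma, with 0% of all tested genes called and 2 chains higher at an unadjusted p under 0.05. COL15A1 was 0.33 higher with no overlap between the arms, at 2918 to 3991 in the combination arm and 2216 to 2813 in the tamoxifen arm, and its adjusted p was 1 by limma. It was the 1 chain without overlap, beside 1.23% of all tested genes above and 1.68% below. Without estradiol animal 4 and tamoxifen animal 1, 0 chains were called in each of the comparisons between drug arms.

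The question whether the effects of the drugs added up was put to the interaction of estradiol and tamoxifen. Here 6 chains were called lower and 0 higher, beside 6.58% and 4.77% of all tested genes (11.4% in either direction), and 7 were lower and 1 higher at an unadjusted p under 0.05 by limma. COL1A1 rose by 1.39 in the combination, where the separate changes summed to 3.42, an interaction of -2.03 ± 0.33 (adjusted p = 0.00343). For COL1A2 the combination gave 1.42 against a sum of 3.06 (-1.65 ± 0.22, adjusted p = 0.00133), and for COL15A1 it gave 1.16 against 2.18 (-1.02 ± 0.15, adjusted p = 0.0024). COL7A1 (-1.75 ± 0.40), COL3A1 (-1.80 ± 0.44) and COL6A3 (-0.50 ± 0.11) were also called (adjusted p = 0.0155, 0.0203 and 0.0115 by limma). With the actin ratio as a covariate, COL1A1, COL1A2, COL7A1 and COL15A1 were called lower and COL11A1 higher (2.74). In that fit 2.95% of all tested probe sets were called for the interaction. How far the COL11A1 call rests on estradiol animal 4 was not tested.

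Collagen chains need enzymes and a chaperone to fold, and 18 of 20 listed genes of folding and modification were tested. For estradiol 10 were higher and 0 lower, for tamoxifen 3 higher and 0 lower and for the combination 3 higher and 0 lower, beside 16.5%, 8.65% and 10.7% of all tested genes called higher. With the actin ratio as a covariate the counts were 5 higher and 1 lower, 0 and 0, and 0 and 0. In that fit 9.9%, 0.708% and 2.01% of all tested probe sets were called. At an unadjusted p under 0.05 by limma without the covariate, 1 gene of the list was lower in each arm. The median changes of the list were 0.47, 0.18 and 0.23. SERPINH1, the collagen chaperone HSP47, changed by 1.43 ± 0.15 for estradiol (adjusted p = 3.68e-05 by limma), 1.00 for tamoxifen (adjusted p = 0.00114) and 0.83 for the combination (adjusted p = 0.00238). P4HA2, a subunit of the prolyl hydroxylase that stabilises the helix, changed by 1.37, 0.93 and 0.77, each called. Calls for estradiol also took in the lysyl hydroxylases PLOD1 (1.30) and PLOD3 (0.55), and PPIB (0.50) and FKBP10 (0.75), which help chains to fold.

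The genes of propeptide cleavage and cross-linking, which act once the molecule is secreted, gave 5 higher and 1 lower of 10 tested for estradiol, 4 higher and 0 lower for tamoxifen and 6 higher and 0 lower for the combination (1 lower at an unadjusted p under 0.05 in each). Of all tested genes, 16.5%, 8.65% and 10.7% were called higher and 13.2%, 7.63% and 9.11% lower. With the actin covariate the counts of this list were 4, 1 and 1 higher and 0 lower. In that fit 9.9%, 0.708% and 2.01% of all tested probe sets were called. LOXL2 was the gene of the list called in it for tamoxifen (1.67) and for the combination (1.87). LOXL2, a cross-linking lysyl oxidase, changed by 2.33 ± 0.21 for estradiol (adjusted p = 1.63e-05 by limma), 1.09 for tamoxifen (adjusted p = 0.00482) and 1.33 for the combination (adjusted p = 0.00127). PCOLCE, an enhancer of the protease that trims the carboxyl end of procollagen, changed by 2.30 ± 0.21, 1.29 and 0.93, each called. ADAMTS2, which trims the amino end, changed by 2.12, 1.89 and 1.86, also called. TLL1, a protease related to BMP1, was the 1 gene of this list called lower for estradiol (-1.33, adjusted p = 0.0433 by limma), a call lost without control animal 2, 3 or 4 or estradiol animal 1, 2 or 4 (adjusted p of 0.0623 to 0.139).

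LOXL2 and PCOLCE were lower for the combination than for estradiol (-1.0 and -1.37, adjusted p = 0.0375 and 0.0102 by limma) and lower for tamoxifen than for estradiol (-1.23 and -1.02, adjusted p = 0.0289 and 0.0453). FKBP10 was lower in both comparisons as well (-0.68 and -0.59). For tamoxifen against estradiol, PCOLCE and FKBP10 each lost the call without estradiol animal 1, 2 or 4 or tamoxifen animal 2, 3 or 4, and LOXL2 without estradiol animal 1 or 4 or tamoxifen animal 2, 3 or 4 (adjusted p of 0.0606 to 0.174 for the 3 genes). With only these arms fitted, 0 of all tested probe sets were called. For the combination against estradiol, PCOLCE kept its call whichever array was left out, FKBP10 lost it without estradiol animal 1 or combination animal 2 (adjusted p = 0.0619 and 0.0527), and LOXL2 lost it without estradiol animal 1 or 4 or any combination animal (adjusted p of 0.0574 to 0.135). SERPINH1 (-0.59, adjusted p = 0.0642) and P4HA2 (-0.60, adjusted p = 0.0521) missed the threshold for the combination against estradiol. Whether these genes differ from the chains themselves in this comparison was not tested.

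**Figure D5:**
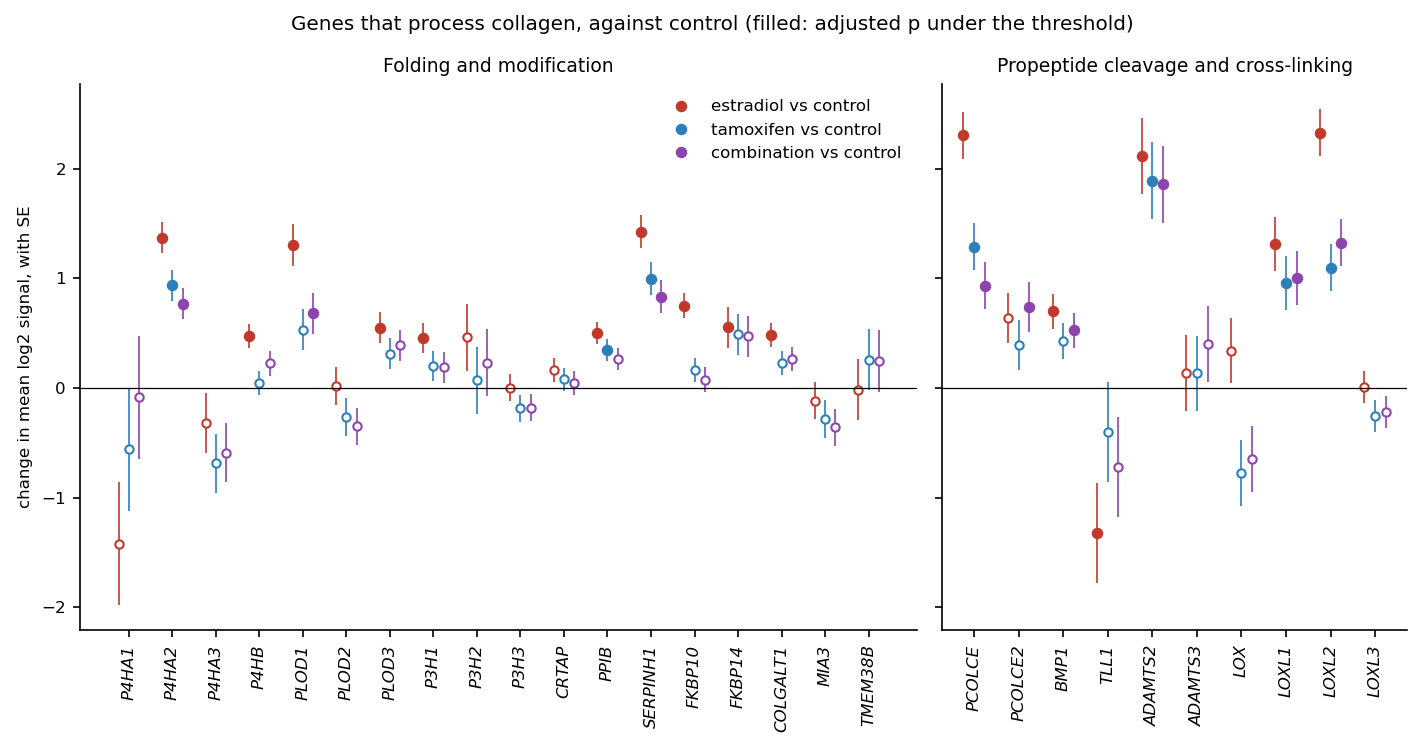
Log2 change against control with its standard error (vertical axis) for the tested genes of collagen folding and modification and of propeptide cleavage and cross-linking, in the estradiol, tamoxifen and combination arms; filled points passed the threshold. LOXL2 (2.33), PCOLCE (2.30), ADAMTS2 (2.12), SERPINH1 (1.43) and P4HA2 (1.37) have the estradiol points named in the text, each above the points of the same gene for tamoxifen and the combination.

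Other lists hold the partners, receptors and breakdown of collagen. Of 7 fibril-associated genes tested, FN1, the cell-adhesion protein fibronectin, was called higher for estradiol (1.44 ± 0.30, adjusted p = 0.00328 by limma). For tamoxifen and the combination 0 were called. In either direction, 29.7%, 16.3% and 19.8% of all tested genes were called. At an unadjusted p under 0.05, limma gave 1 gene of the list higher and 3 lower for estradiol, and 0 for tamoxifen and the combination. FN1 was lower for the combination than for estradiol (-1.47, adjusted p = 0.0342 by limma), a call lost without estradiol animal 1 or 4 or combination animal 1, 2 or 3 (adjusted p of 0.0679 to 0.121). In the fit with the actin covariate, 9.9% of all tested probe sets were called for estradiol. There FN1 (1.93) was higher for estradiol, and DCN (-1.80) and THBS2 (-5.0), which also bind matrix, were lower. The part of estradiol animal 4, with the highest actin ratio of its arm, in these values was not tested. The small proteoglycans that coat fibrils were not called, with DCN at -0.82, -0.68 and -0.66 and LUM at -0.12, -0.60 and -0.32. Of 5 collagen receptors tested, 0 were called by limma, and at an unadjusted p under 0.05 the counts were 0, 0 and 1. Of all tested genes, 29.7%, 16.3% and 19.8% were called in either direction for estradiol, tamoxifen and the combination. Counts from so few genes do not tell the receptors from genes at large. By limma without both arrays low in muscle genes 1 was higher for tamoxifen and 1 for the combination. In that fit 11.2% and 19.5% of all tested probe sets were called for these arms. ITGB1, the shared beta subunit of the collagen-binding integrins, changed by 0.26, 0.35 and 0.43.

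Of the 7 listed collagen-degrading proteases, 3 were tested and 0 were called by limma, with 2, 0 and 0 at an unadjusted p under 0.05. Of all tested genes, 29.7%, 16.3% and 19.8% were called in either direction. With so few genes, the counts of these proteases and of the regulators below do not tell them from genes at large. MMP2, a gelatinase, changed by 0.42, 0.33 and 0.13, and MMP14, a membrane-bound collagenase, by 0.60, 0.22 and -0.05; with the actin covariate MMP14 was called higher for estradiol (1.34). Among 6 regulators, CREB3L1, a transcription factor that acts on collagen genes in bone of the mouse, was called higher in each arm (1.20, 1.02 and 0.98, adjusted p = 0.000371, 0.00281 and 0.00279 by limma), and for estradiol alone with the actin covariate (1.02, adjusted p = 0.0408). CCN2, a matrix protein induced by TGF-beta, was lower for estradiol (-0.51, adjusted p = 0.0358 by limma). This call was lost without control animal 2, 3 or 4 or estradiol animal 1, 2 or 4 (adjusted p of 0.0542 to 0.106). CCN2 was higher for the combination than for estradiol (0.77, adjusted p = 0.0411 by limma), a call lost in 7 of 8 fits without 1 array. With the actin covariate CCN2 was called in both comparisons (-0.87 and 0.74, adjusted p = 0.0384 and 0.04 by limma). TGFBR2, a TGF-beta receptor, was not called (-0.26, -0.26 and -0.18).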

How the data were processed

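Total RNA of frozen endometrium was labelled and hybridised to 1-colour Affymetrix rhesus arrays, 1 per animal. Each array's deposited file column gives linear intensity per probe set, made with MAS5 in GCOS and Affymetrix Expression Console (no versions), per the submitters' processing notes. A mean trimmed by 2% at either end came to 250.0 throughout, so no further scaling was applied. Control probe sets (99) and the dimmest 40% by mean over all arrays were dropped, leaving 31659 of 52865. Values went to log2(signal + 4.80), the pseudocount being the 10th percentile of all values. limma 3.58.1 in R 4.3.3 fitted arm means to all arrays, with 12 residual degrees of freedom, 7 comparisons and eBayes with a trend; adjusted p is Benjamini-Hochberg over all tested probe sets. The script was tested on simulated data. The number of arrays limits the precision.

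Members and lists were chosen with earlier results of these data known. Per-array values are given for a list of 18 chains, of which 14 were annotated, and for the 2 highest and 2 lowest calls of each class and comparison; of each gene list, the 2 members of smallest p against control are named, and further called members were chosen after their values were seen. Probe sets carry 1 platform symbol in 24969 cases, more in 361 and no symbol in 27535; the 35 chains have 60 probe sets. A RefSeq gene table of the cynomolgus macaque (T2T-MFA8v1.1) holds 34 of the 35 symbols and was used only for neighbours; 9 further collagen symbols in it, among them COL5A1 and COL17A1, had no probe set under that symbol and were not analysed here. Probe sequences were not used here. Alternatives were other pseudocounts, filters and probe sets, quantile normalization, eBayes without a trend, the actin ratio as a covariate, a replicate block, only the arms compared, and arrays left out.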

Additional observations from a re-analysis of the deposited data

Results flagged for a closer look

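In 12 of 112 groups of 4 animals (10.7%), 1 animal lay far from the others on the log2(signal + 4.80) scale, where chance gives about 1 in 20. The groups are not independent, since all chains were read on the same 16 arrays. The share over all tested genes was not computed, so the count does not tell the chains from genes at large. Flagged fibrillar chains were COL1A2 in estradiol animal 3 (13.25, others 13.66 to 13.71) and COL3A1 in control animal 2 (6.89, others 7.78 to 7.95). COL5A2 was flagged in combination animal 1 (11.67, others 11.24 to 11.29). For COL5A3 it was tamoxifen animal 1 (7.20, others 7.09 to 7.10) and combination animal 4 (6.62, others 7.03 to 7.10). The last were COL11A1 in control animal 1 (5.97, others 6.71 to 6.83) and COL11A2 in tamoxifen animal 2 (7.03, others 6.97 to 6.98). The gap was small for COL11A2 and for COL5A3 in tamoxifen animal 1. Among other chains they were COL6A1 in tamoxifen animal 1 (12.61), COL12A1 in estradiol animal 4 (11.94, others 12.82 to 12.90) and tamoxifen animal 1 (12.21), COL14A1 in estradiol animal 4 (6.94, others 10.74 to 11.20) and COL19A1 in tamoxifen animal 1 (5.59). Tamoxifen animal 1 and estradiol animal 4, both low in smooth muscle genes, hold 6 of these 12 values. The part of tissue makeup in them was not tested.

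The effect of one drug differed with the other drug present, by limma's interaction test, for COL1A1 (-2.03), COL1A2 (-1.65), COL3A1 (-1.80), COL6A3 (-0.50), COL7A1 (-1.75) and COL15A1 (-1.02). The control arrays enter this comparison as well as those against control.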

How the results depend on the processing

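As reported, 7, 7 and 9 chains were called in the 3 treated arms relative to placebo, 1 between tamoxifen and estradiol alone, and 6 for the interaction. With the actin ratio as a covariate, counts were 3 for tamoxifen and 4 for the combination against control. The estradiol count of 8 against control then held 3 lower calls. Between drug arms that fit gave 1 for the combination against estradiol and 0 for tamoxifen against estradiol. In these comparisons 1.06% and 0.344% of all tested probe sets were called. The call for tamoxifen against estradiol was lost (count 0) with no filter, with eBayes without a trend, with the second brightest probe set, without both arrays low in muscle genes and with only the arms compared. With a replicate block, counts for tamoxifen against estradiol were 0. The replicate numbers of the labels are not said to pair animals, and same-numbered arrays did not deviate together (r of -0.27 to 0.095 over 24 pairs, 0 over 0.1). Leaving out 1 array gave 7 to 9, 5 to 8 and 7 to 9 calls against control, 0 to 1, 0 to 0 and 0 to 1 between drug arms, and 6 to 7 for the interaction. Direction turned for COL15A1 (-0.092, -0.12 and -0.18 against control, 0.029 for the interaction) and COL5A2 (0.66 for tamoxifen, 0.66 for the combination) by the second brightest probe set, and for COL4A3 under tamoxifen with the actin covariate (0.12), as it did for PCOLCE2 under the combination (-0.11). COL5A2's calls were lost without any 1 of 6 arrays for each of tamoxifen and the combination. Of 611 alternative values of the 30 calls, 543 kept direction and call, 61 lost the call and 7 turned. COL1A1, COL3A1, COL6A3, COL12A1 and COL16A1 have 1 tested probe set each. For them the second brightest setting repeats the reported value and counts as kept. Fits without 1 array share most of their arrays, so the 611 values are not independent. Over all probe sets, tamoxifen against control gave 2663 calls with only the arms compared, against 4214. Leaving out 1 array moved the calls over all probe sets from 385 to between 47 and 1136 for the combination against estradiol, and from 180 to between 0 and 618 for tamoxifen against estradiol. Settings for the lists of other genes were chosen after seeing the data. Values of chains under a signal of 200, a split chosen for description, may be limited by background. No background level was computed here.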
